A study of Rattus norvegicus with 90 samples.

Results

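The difference between the liver and the kidney in their response to a high dose of thioacetamide was examined 24 h after a single exposure. The comparison used 19 of the 90 samples of the series, chosen by organ, dose, and time alone: liver vehicle (n = 4), liver high dose (n = 5), kidney vehicle (n = 5), and kidney high dose (n = 5). Male Sprague-Dawley rats, bought at 10 weeks of age and later fitted with a jugular vein catheter, received 1 intraperitoneal injection of thioacetamide at 100 mg/kg or of saline at 3 ml/kg, and food was withdrawn from every group for the last 8 h. A liver piece and the powdered kidney were sequenced from the rats, but the labels do not state which libraries came from one rat, so the organs were compared as separate libraries. A pairing inferred from the library numbers was tried as an alternative. Another liver vehicle library, MS-1, was left out because it repeats another library: 99.96% of 15797 transcripts with at least 10 counts lay within 1 count of a low-dose liver library taken at 8 h. Gene symbols could not be attached to the transcript identifiers with the tables used here, so transcripts are described by identifier, level, and organ, and the organ labels were checked by transcripts restricted to each organ instead of by named marker genes.

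Thioacetamide is a small sulfur compound that is not itself the main toxicant. Enzymes of the liver, cytochrome P450 and flavin monooxygenases, oxidize it to an S-oxide and then to a reactive S,S-dioxide that binds proteins. The hepatocytes around the central veins, which hold most of the oxidizing enzymes, are the classical site of injury, and repeated dosing is used as a model of liver fibrosis. The kidney filters and excretes the compound and its metabolites, and its proximal tubule cells also carry oxidizing enzymes. In bulk tissue, fewer cells of a type and less RNA per cell cannot be told apart.

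Each library held between 20516138 and 32444050 estimated counts in the liver and between 20531004 and 31562820 in the kidney. Transcripts with a value above 0 numbered 21460 ± 591.4 in liver vehicle (SD, n = 4) and 23260 ± 488 in liver high dose (SD, n = 5), and the groups did not overlap (exact two-sided permutation p = 0.0159, adjusted p = 0.0381 over 12 library comparisons). That p is the smallest 5 libraries against 4 can give. In the kidney the numbers were 24170 ± 384.3 and 24740 ± 861.8 (SD, n = 5 each, exact permutation p = 0.198). The kidney libraries MS-54 and MS-31 stood apart by liver-restricted transcripts (described with the sums of restricted transcripts), MS-54 in the high-dose group and MS-31 in the vehicle group. Results that rest on them are given with and without MS-54, and some also without both.

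The high-dose effect differed between the organs for 2825 of 20557 transcripts tested, or 13.7% (interaction of organ and dose, edgeR quasi-likelihood test, Benjamini-Hochberg adjusted p of no more than 0.01). The effect was higher in the liver for 1375 (6.69%) and lower in the liver for 1450 (7.05%). At an unadjusted p under 0.05 there were 6938. With library MS-1 kept in the liver vehicle group, 1563 passed the interaction test. Taken alone, the liver effect passed the test for 4873 transcripts, of which 2483 rose (12.1%) and 2390 fell (11.6%). In the kidney 431 rose (2.1%) and 396 fell (1.93%). A call within an organ also needed a change of 0.60 or more in size on the natural-log scale, which is 0.87 on the log2 scale.

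Most transcripts with a different effect were measured in both organs, that is, reached an average of 1 CPM, the count scaled for library size, in the vehicle or high-dose group of each. Of 15038 such transcripts, 2567 passed the interaction test (17.1%). A further 140 were measured in the liver only and 86 in the kidney only. Among the 2567, the median absolute difference between the organs' effects was 1.44 on the log2 scale, the smallest was 0.40, and 74.6% differed by at least 1. The median standard error of the difference was 0.28, and the median SD of a transcript between libraries of a group was between 0.22 and 0.28 on the log2(CPM + 0.5) scale. A minimum of 1 CPM in all 4 groups left 2262 of 13600.

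The direction of these effects is relative to the scaling between libraries. TMM factors, which set each library's effective size, were between 0.503 and 0.61 in liver vehicle, 0.885 and 1.111 in liver high dose, and 1.147 and 1.388 in the kidney groups. The 20 most abundant transcripts held 35.4% ± 6.58 of transcript TPM (kallisto's length-scaled abundance) in liver vehicle (SD, n = 4) and 24.3% ± 3.06 in liver high dose (SD, n = 5). With library totals alone, the median effect of all transcripts moved to 0.91 in the liver and 0.14 in the kidney on the log2 scale, from 0.06 and -0.01 with TMM. The interaction count was then 6283, of which 5727 were higher in the liver, 91.1% of the calls against 48.7% with TMM. Values that follow are relative to the TMM scaling unless said otherwise.

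**Figure D1:**
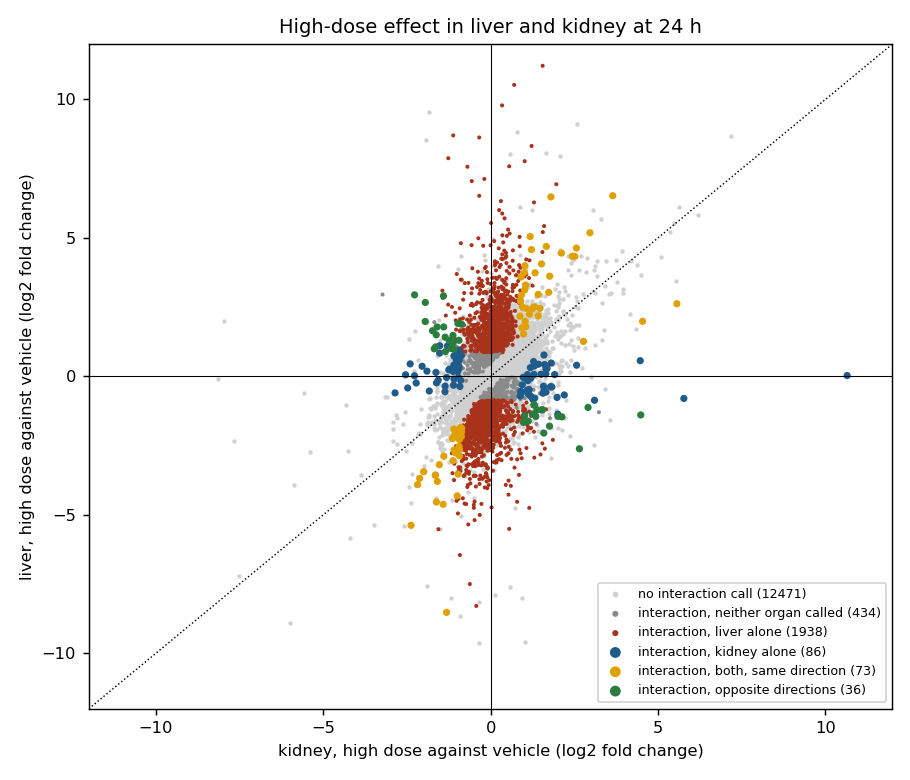
High-dose effect in the kidney (horizontal axis) and in the liver (vertical axis), both as log2 fold change against vehicle at 24 h, for the 15038 transcripts measured in both organs. Each point is 1 transcript, coloured by interaction call and by the organ in which its own effect was called, and the dotted line marks equal effects. The 1938 transcripts called in the liver alone spread along the vertical axis, the 86 called in the kidney alone lie along the horizontal axis, and the 36 in opposite directions lie in the upper left and lower right.

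The largest class was a liver effect with no call in the kidney. Of the 2567 transcripts, 906 rose in the liver alone and 1032 fell in the liver alone. Those that rose had a median liver log2 change of 1.74 and a median kidney change of 0.11, and those that fell had medians of -1.64 and -0.20. They differed in level: the rising transcripts had a median of 3.48 CPM in liver vehicle against 12.6 in kidney vehicle, while the falling ones had 95.7 against 35.7. The falling class (1115 among all tested) held a median of 15.6% of transcript TPM in liver vehicle and 9.17% in liver high dose, and 8.75% and 8.84% in kidney vehicle and high dose. Of the 906 rising transcripts, 197 were below 1 CPM in liver vehicle and entered through the high-dose group alone. Of the 1032 falling ones, 42 were below 1 CPM in liver high dose and entered through the vehicle group alone. Without a difference between organs that passed the test, a further 1750 transcripts measured in both organs were called in the liver and not in the kidney, so a call in one organ and none in the other does not by itself mark a difference.

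ENSRNOT00000075989 was 1 of the 2 transcripts with the largest interaction among those that rose in the liver alone. With a group at 0, the fitted interaction, and so this rank, depends on the prior count of the fit. All 4 liver vehicle libraries were at 0, and liver high-dose libraries held 5.55, 10.4, 8.70, 7.58, and 32.7 CPM. Kidney vehicle libraries held 2.78, 6.18, 2.45, 7.54, and 4.66 CPM and kidney high-dose libraries 13.1, 20.2, 5.70, 8.21, and 22.2. The liver groups did not overlap, which was a condition for naming a transcript, in each organ with a call. It was met by 885 of the 906. The kidney groups overlapped. The liver level was at least 220-fold higher with the high dose, taking 3 counts over the vehicle group as the floor. The kidney change was 1.55 ± 0.51 (SE) on the log2 scale, with an edgeR adjusted p of 0.0547, and the interaction had an adjusted p of 4.54e-04. That call was lost with limma voom weights per group (adjusted p = 0.0278) and with limma on log2(TPM + 1) (adjusted p = 0.0178). At 8 h, in other rats, the interaction was 2.85 (edgeR adjusted p = 0.19).

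The other transcript, ENSRNOT00000086921, was also at 0 in all 4 liver vehicle libraries and held 4.85, 15.7, 10.8, 4.98, and 3.86 CPM with the high dose, at least 136-fold higher. In the kidney it ranged from 0 to 12.2 CPM in vehicle libraries and from 2.83 to 12.9 in high-dose libraries, and these groups overlapped. Its interaction (edgeR adjusted p = 0.00614) did not pass in 13 of 36 alternatives, and with MS-1 kept the adjusted p was 0.818. In the 8 h vehicle livers its mean was 3.17 TPM, and at 8 h the liver change was -0.39 and the interaction -0.61 (edgeR adjusted p = 0.833), so the absence without treatment was not seen there. Both are low-level transcripts that counted as measured in the liver through the high-dose group alone. Kallisto divides the reads of a gene among its isoforms, so the value of a single transcript is uncertain where isoforms share sequence, and its part in these results was not tested.

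Among transcripts that fell in the liver alone, ENSRNOT00000061864 held 4.50, 5.32, 6.93, and 7.48 CPM in the vehicle libraries. With the high dose it held 0.162 CPM in library MS-3 and 0 in the other 4. The sums were 300 counts against 3, a ratio of 221 (95% exact counting interval 74.8 to 1076). The kidney libraries ranged from 4.67 to 19.5 CPM with vehicle and from 5.89 to 12.95 with the high dose, overlapping, and the interaction had an edgeR adjusted p of 6.57e-06. At 8 h the interaction was -0.93 (edgeR adjusted p = 0.236), which did not pass. ENSRNOT00000092349 held 4.24, 1.31, 0.251, and 1.08 CPM in liver vehicle, the highest being MS-4, and 0 in all 5 liver high-dose libraries. On counts summed over each group the level was at least 60.3-fold lower, which does not hold for each vehicle library alone. It held between 17.3 and 29.2 CPM in kidney vehicle and between 13.9 and 20.8 in kidney high dose, where its change was -0.43 ± 0.38 (SE) on the log2 scale (edgeR adjusted p = 0.536). Its interaction (edgeR adjusted p = 3.065e-04) did not pass in 2 of 36 alternatives. With limma on log2(TPM + 1) it was -0.36 (adjusted p = 0.324). At 8 h, in other rats, the interaction was -6.61 (edgeR adjusted p = 0.00264). Both transcripts counted as measured in the liver through the vehicle group alone.

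A kidney effect with no call in the liver was less frequent. Of the 2567 transcripts, 45 rose in the kidney alone and 41 fell. Of the 45, 9 were below 1 CPM in kidney vehicle and entered through the high-dose group alone. The rising transcripts had a median kidney change of 1.505 and a median liver change of -0.30 on the log2 scale, and the falling ones had -1.12 and 0.23. Rising transcripts were at a median of 5.97 CPM in kidney vehicle and 33.5 in liver vehicle, and falling transcripts at 43.3 and 6.16. By these medians, the transcripts that fell in one organ alone were the more abundant in the organ where they fell. These levels, in both organs, come from the same vehicle libraries that entered the calls, so level and direction are not independent here. Levels from the separate 8 h vehicle libraries are compared further below.

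ENSRNOT00000033196 was the most abundant transcript named here. Kidney vehicle libraries held 4593, 3275, 2672, 2619, and 3533 CPM and kidney high-dose libraries 812.6, 607.5, 794.8, 311.1, and 632.1. Every high-dose library was below every vehicle library, a condition for naming that 39 of the 41 falling transcripts met. The kidney change was -2.40 ± 0.25 (SE) on the log2 scale (edgeR adjusted p = 3.47e-06). In the liver, vehicle libraries held between 81.5 and 154.8 CPM and high-dose libraries between 141.1 and 191.0, overlapping, with a change of 0.45 ± 0.25 (SE, edgeR adjusted p = 0.162). The organs' effects differed by 2.85 ± 0.36 (SE, edgeR adjusted p = 1.67e-05), and the call held in all 36 alternatives. At 8 h, in other rats, its kidney change was -0.98 (edgeR adjusted p = 0.0118) and its liver change 0.76 (edgeR adjusted p = 0.0086). ENSRNOT00000083153, the other transcript that fell in the kidney alone, was far lower, at 7.21 ± 3.49 CPM in kidney vehicle and 2.51 ± 0.58 in kidney high dose (SD, n = 5 each). Its liver libraries ranged from 0.36 to 0.918 CPM with vehicle and from 1.09 to 1.81 with the high dose. It thus counted as measured in the liver through the high-dose group alone. The liver groups did not overlap either, and the liver change of 1.11 ± 0.36 (SE) had an edgeR adjusted p of 0.0165, above the limit for a call. At 8 h its interaction was 0.68 (edgeR adjusted p = 0.443), which did not pass.

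ENSRNOT00000073099 rose in the kidney alone. It held 0.193, 0.109, 0, 0.0363, and 0 CPM in kidney vehicle and 7.22, 2.56, 4.86, 1.96, and 4.35 in kidney high dose. The liver held far more, between 46.7 and 96.9 CPM with vehicle and between 33.4 and 50.8 with the high dose, overlapping. The kidney change was 5.77 ± 0.52 (SE) on the log2 scale (edgeR adjusted p = 7.60e-07) and the liver change -0.80 ± 0.31 (SE, edgeR adjusted p = 0.0425). Its interaction at 8 h was -1.40 (edgeR adjusted p = 0.276), which did not pass. ENSRNOT00000083275 was at 0 in all 5 kidney vehicle libraries and held 5.86, 8.46, 16.3, 1.92, and 11.3 CPM in kidney high dose, at least 380-fold higher. Its liver libraries held between 1.82 and 11.5 CPM with vehicle and between 5.39 and 10.3 with the high dose, a change of 0.03 ± 0.53 (SE) on the log2 scale. In the 8 h libraries the mean was 1.03 TPM in kidney vehicle and the kidney change was -1.13 (edgeR adjusted p = 0.609). The interaction there was 2.79 (edgeR adjusted p = 0.194) against -10.62 at 24 h, so the 24 h difference was not seen at 8 h. Both transcripts counted as measured in the kidney through the high-dose group alone.

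In 41 transcripts the effects were called in opposite directions. Of these, 25 rose in the liver and fell in the kidney, 20 of them measured in both organs, and 16 fell in the liver and rose in the kidney, all measured in both. Of the 20, 7 were below 1 CPM in liver vehicle, and of the 16, 5 were below 1 CPM in kidney vehicle, so that they counted as measured in both organs through the group in which they rose. Without treatment, 24 of the 25 were higher in the kidney, and 18 of the 25 were over 10 times higher in kidney than in liver in the 8 h vehicle libraries. Of the 16, all but 1 were higher in the liver, and 11 were over 10 times higher there in the 8 h vehicle libraries. Of 12124 tested transcripts with at least 1 TPM in both organs in those libraries, 330 were over 10 times higher in the kidney and 214 in the liver. The 25 and the 16 were not held to that minimum. ENSRNOT00000066277, for example, had 0.0913 TPM in the 8 h vehicle livers. These counts are therefore not a like base for them, and none was calculated. The 25 changed by 0.90 to 5.80 in the liver and by -4.02 to -0.87 in the kidney on the log2 scale, and the 16 by -2.61 to -1.02 and by 0.98 to 4.48. All 41 kept both signs with library totals alone, with RLE scaling, and with TMM within each organ, and 39 did with each of the limma fits on TPM. The number still called in opposite directions, in the same organs, was 21, 36, and 40 with the first 3, in that order, 11 and 15 on log2(TPM + 1) and log2(TPM + 0.1), 23 with voom weights per group, 39 with DESeq2, and 22 with MS-1 kept. Without MS-54 it was 36, and without both MS-31 and MS-54 it was 26.

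ENSRNOT00000066277 showed the largest interaction among the 15 that rose in the liver and fell in the kidney, were measured in both organs, and had no overlap between dose groups. Liver vehicle libraries held 0.346, 0.0872, 0.251, and 0 CPM and liver high-dose libraries 1.02, 1.26, 1.12, 1.22, and 1.89. Kidney vehicle libraries held 37.9, 21.4, 23.02, 19.2, and 13.97 CPM and kidney high-dose libraries 5.83, 3.94, 4.51, 5.22, and 4.43. Neither organ's groups overlapped, and the level of the transcript in the treated liver stayed below that in every treated kidney library. It counted as measured in the liver through the high-dose group alone. The liver change was 2.94 ± 0.49 and the kidney change -2.27 ± 0.29 (SE, log2 scale), a difference of 5.21 ± 0.56 with an edgeR adjusted p of 4.13e-06. At 8 h the interaction was 0.15 (edgeR adjusted p = 0.89). ENSRNOT00000011344 crossed over: the liver went from 3.20, 0.785, 1.92, and 1.65 CPM to 8.56, 11.6, 9.46, 9.35, and 21.2, while the kidney went from 17.7, 14.3, 7.58, 6.6, and 12.7 to 2.87, 5.15, 4.03, 1.07, and 2.08. Treated livers thus held more than treated kidneys in every library, the reverse of the vehicle groups. Its interaction was 4.62 ± 0.63 (SE, edgeR adjusted p = 3.69e-05) at 24 h and 2.85 (edgeR adjusted p = 2.78e-04) in the 8 h libraries.

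ENSRNOT00000034784 and ENSRNOT00000090272 fell in the liver, where they were abundant, and rose in the kidney from near 0 in the 24 h vehicle libraries. Both counted as measured in the kidney through the high-dose group alone. The first held 494.2, 607.7, 796.2, and 576.6 CPM in liver vehicle and 268.7, 137.1, 334.4, 233.6, and 205 in liver high dose. In the kidney it went from 1.23, 0.327, 0.0892, 0.218, and 0.288 CPM to 14.4, 14.7, 9.08, 6.52, and 4.98. The highest vehicle value was that of MS-31, and the value of MS-54, 9.08, lay within the range of the other 4 high-dose libraries. The kidney change was 4.48 ± 0.47 and the interaction -5.88 ± 0.60 (SE, log2 scale, edgeR adjusted p = 2.76e-06), and at 8 h the interaction was -2.83 (edgeR adjusted p = 2.57e-04).

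The second, ENSRNOT00000090272, held 616.6, 666.0, 754.3, and 541.1 CPM in liver vehicle and 116.5, 87.5, 109.9, 138.1, and 75.1 in liver high dose. Its kidney levels were low, 0.463, 0.327, 0.402, 0.0725, and 0.144 CPM with vehicle and 0.754, 2.63, 1.64, 3.21, and 0.985 with the high dose. Neither organ's groups overlapped, a condition for naming that 12 of the 16 met. MS-54 held 1.64 CPM, the median of its group. The interaction was -5.26 ± 0.53 (SE, edgeR adjusted p = 2.57e-06). At 8 h the interaction was -1.44 (edgeR adjusted p = 0.0402), which did not pass the limit. The kidney change there was 0.59 (edgeR adjusted p = 0.435), and the mean in the 8 h kidney vehicle libraries was 2.06 TPM.

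**Figure D2:**
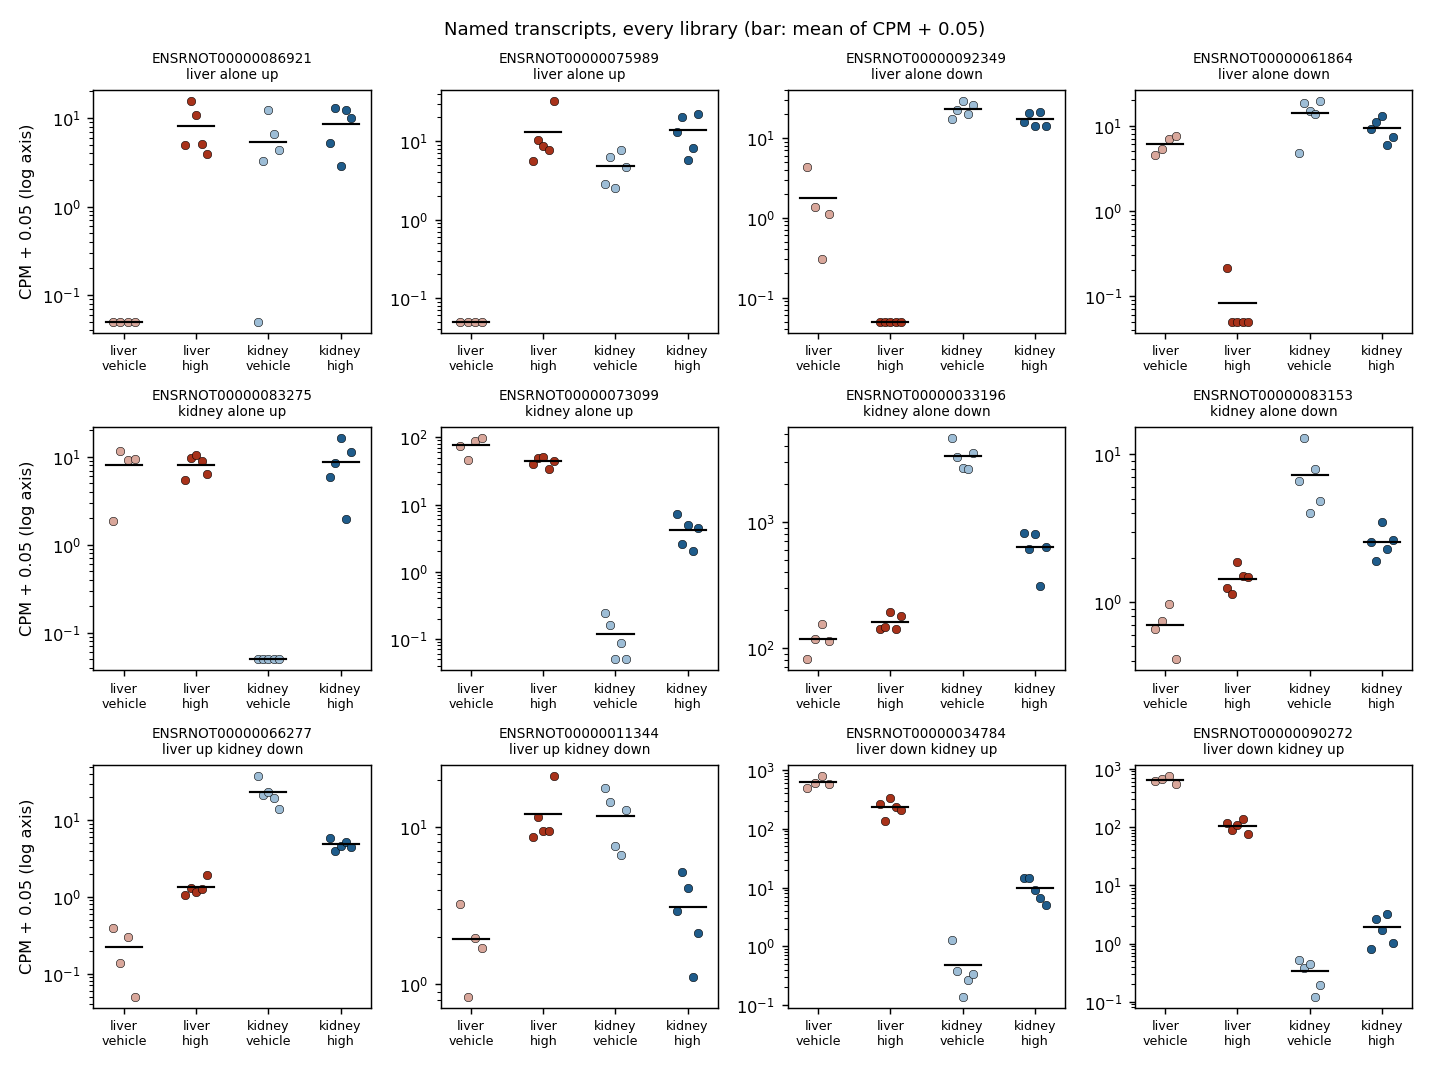
Level of the 12 named transcripts in every library, as CPM + 0.05 on a log axis, in the 4 groups of liver and kidney given vehicle or the high dose. Each point is 1 library and each bar the mean of the plotted values in the group, and points at the bottom of a panel at 0.05 are libraries at 0. The lower row shows the 4 transcripts called in opposite directions. No high-dose library there overlaps the vehicle libraries of its organ, which was a condition for naming them.

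In 73 transcripts both organs were called in the same direction but to different extents, 37 rising and 36 falling. The change was the larger in the liver for 34 of the 37 and for all 36, beside 15027 of all 20557 transcripts tested. Rising transcripts had medians of 3.03 in the liver and 1.31 in the kidney on the log2 scale, and falling ones -2.70 and -1.06. This class numbered 5 with MS-1 kept and between 44 and 83 with any single library left out. For another 348 transcripts both organs were called and no interaction was, and the liver change was the larger in 232 of them. A further 450 passed the interaction test with neither organ called alone, with a median standard error of 0.17. Of them, 362 (80.4%) had opposite signs in the organs, beside 34.6% of all tested, which the definition of this class favours.

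The level of a transcript without treatment was compared with its response in libraries that played no part in the fit. Liver and kidney TPM were taken from the 8 h vehicle groups, and the 12124 tested transcripts with at least 1 TPM in both organs there were sorted by the ratio. Of 214 transcripts over 10 times higher in the liver, 110 passed the interaction test (51.4%), 2 of them higher in the liver and the rest lower. Of 605 that were 2 to 10 times higher in the liver, 254 did (41.98%), 249 lower. Within 2 times, 860 of 6353 did (13.5%), with 688 lower and 172 higher. At 2 to 10 times higher in the kidney, 646 of 4622 did (13.98%), with 202 lower and 444 higher. Of 330 over 10 times higher in the kidney, 132 did (40%), with 36 lower and 96 higher. Over all 12124 the share was 16.5%.

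The liver carried most of this order. From the transcripts highest in the liver to those highest in the kidney, the median liver change went through -1.62, -0.99, -0.10, 0.09, and 0.26 on the log2 scale, and the median kidney change through 0.12, 0.01, 0.02, -0.06, and -0.26. In the liver 65.4% of the first group fell and 0.935% rose, against 15.7% and 10.1% of all 12124. Of the last group 30.0% rose and 18.8% fell there, so that group moved both ways. In the kidney 9.09% of the last group fell against 1.72% of all 12124, and 1.21% rose against 2.38%. Without MS-54 the median kidney change of the first group was -0.14 instead of 0.12, and 107 instead of 110 transcripts passed the interaction test. Without both MS-31 and MS-54 the median was -0.09, and 100 of its transcripts were called lower and 1 higher in the liver. With library totals alone the medians of the liver change became -0.78, -0.16, 0.75, 0.95, and 1.10 around an overall 0.79, and of the calls in the first group 82 of 85 were lower in the liver and in the last group 176 of 190 higher. The order of the medians was kept and the zero was moved. Within 2 times, the calls went from 688 lower and 172 higher in the liver to 181 lower and 1865 higher. In the last group, 176 transcripts then rose in the liver and 29 fell, against 99 and 62 with TMM. The direction of the calls within 2 times, and how far the last group moved both ways, thus depend on the scaling.

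**Figure D3:**
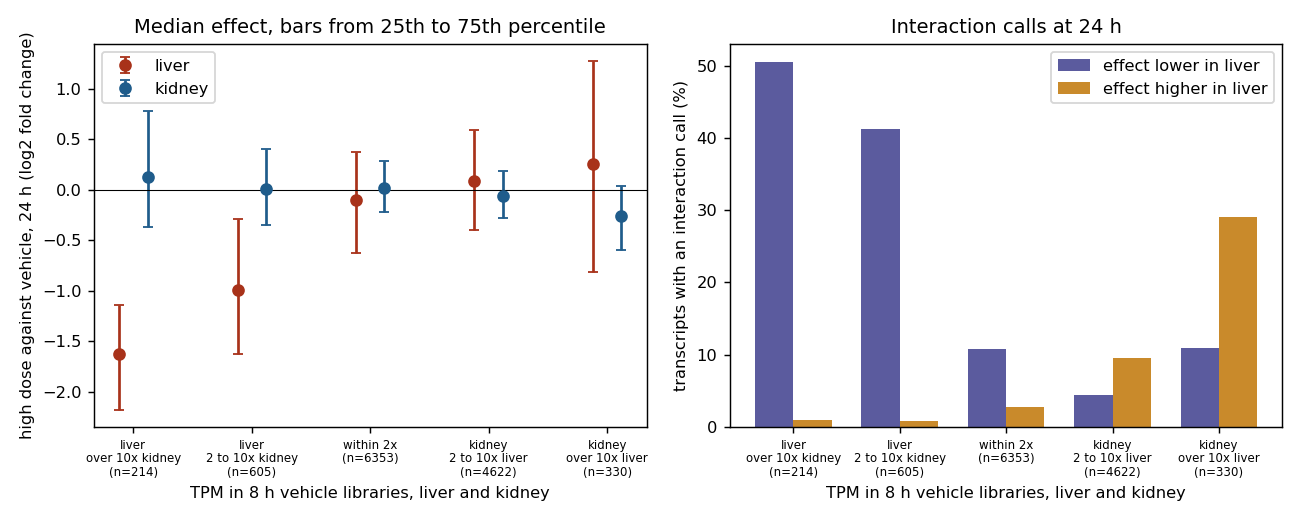
Response at 24 h of the transcripts with at least 1 TPM in both organs, sorted along the horizontal axis by their TPM ratio between liver and kidney in 8 h vehicle libraries. On the left, points are the median log2 fold change of high dose against vehicle in each organ, with bars from the 25th to the 75th percentile of transcripts. On the right, bars give the percent of transcripts with an interaction call, by direction. Transcripts over 10 times higher in the liver had a median liver change of -1.62, and 50.5% had a lower effect in the liver.

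Transcripts restricted to one organ were followed as sums. In the 8 h vehicle libraries 289 transcripts had at least 10 TPM in the liver and over 100 times the level of the kidney and the heart, and 237 met the same rule for the kidney. Liver-restricted transcripts held 35.2%, 26.4%, 36.8%, and 25.5% of transcript TPM in the liver vehicle libraries MS-4, MS-19, MS-20, and MS-21. In liver high dose they held 25.5%, 22.9%, 25.4%, 24.8%, and 21.5%. The mean fell from 31% ± 5.87 (SD, n = 4) to 24.0% ± 1.73 (SD, n = 5), with the groups just apart (exact two-sided permutation p = 0.0159, adjusted p = 0.0381). The 2 lower vehicle libraries also had the larger shares of counts on genomic intervals outside the transcripts, 20.6% and 25.0% against 7.64% and 8.27%, and their part in the result was not tested. Of the 281 that were tested one by one, 147 fell in the liver and 2 rose, beside 11.6% and 12.1% of all transcripts, with a median of -1.75 on the log2 scale (-0.91 with library totals alone, where all transcripts had a median of 0.91). Without kidney library MS-54 in the fit, 199 fell in the liver and 2 rose, with a median of -1.73. The number called in the liver thus also depends on that library.

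Kidney-restricted transcripts held 6.505%, 5.28%, 4.74%, 4.88%, and 4.34% of transcript TPM in the kidney vehicle libraries and 3.96%, 3.84%, 3.29%, 4.19%, and 3.00% in the kidney high-dose libraries. The groups did not overlap, and the means were 5.15% ± 0.829 and 3.66% ± 0.495 (SD, n = 5 each, exact two-sided permutation p = 0.00794, adjusted p = 0.0381). That p is the smallest the design allows. Of 231 tested, 49 fell in the kidney and 1 rose, beside 1.93% and 2.1% of all transcripts. Each organ thus had a lower share of its own restricted transcripts after the high dose.

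The same sums gave the traces of one organ's transcripts in the other. Liver-restricted transcripts made up between 0.0206% and 0.0395% of transcript TPM in 4 kidney vehicle libraries and 0.0954% in MS-31. In kidney high dose they made up between 0.0290% and 0.0339% in 4 libraries and 0.269% in MS-54. The groups did not differ beyond their spread (exact permutation p = 0.643). The liver-restricted transcripts had a median kidney change of 0.70 on the log2 scale with MS-54 in the fit and of -1.11 without it. Of them, 49 against 38 passed the interaction test, so their kidney values depend on this library. MS-31, the highest vehicle library, was kept in both fits, and the median without both libraries was not calculated for this set. Kidney-restricted transcripts were between 0.00545% and 0.00829% in liver vehicle and between 0.0119% and 0.0359% in liver high dose, and these groups did not overlap (exact permutation p = 0.0159, adjusted p = 0.0381).

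**Figure D4:**
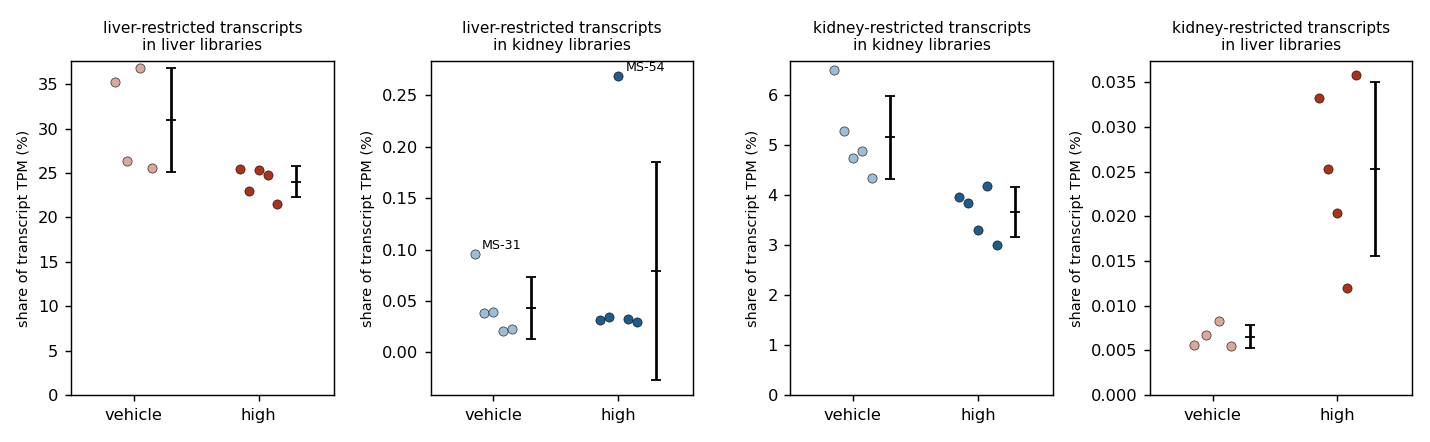
Share of transcript TPM (%, vertical axes with different scales) held by the 289 liver-restricted and 237 kidney-restricted transcripts in vehicle and high-dose libraries at 24 h. Points are libraries, and the bars beside them are the mean ± SD (n = 4 for liver vehicle, 5 for the other groups). The liver-restricted share in kidney libraries is 0.269% in MS-54 and 0.0954% in MS-31, above the other libraries of their groups.

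The rats killed at 8 h gave separate libraries, with their own vehicle groups. There the interaction passed for 2862 of 19891 transcripts (14.4%). Of the 2825 transcripts called at 24 h, 2806 were tested at 8 h and 947 were called (33.8%), against 14.5% of the 19713 tested at both times. Of the 947, 933 had the sign they had at 24 h, beside 2462 of all 2855 called at 8 h among those tested at both times. The 1039 transcripts that rose in the liver alone at 24 h, among all tested, had a median liver change of 0.998 at 8 h, and the 1115 that fell had -0.72, on the log2 scale, while the kidney medians were 0.05 and -0.01. Both are smaller in size than the 24 h medians of these transcripts, 1.88 and -1.70, which were chosen on the 24 h libraries. Of the 25 that rose in the liver and fell in the kidney, 9 were called at 8 h with the same sign, and of the 16 with the reverse pattern 4 were. The sign of the interaction was kept at 8 h by 19 of the 25 and by all 16. Of the transcripts with a kidney effect alone, 57.1% of the 49 rising and 67.9% of the 56 falling had the same sign at 8 h, beside 66.9% of all tested at both times.

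The low dose, 25 mg/kg, used the same vehicle libraries at 24 h, so its values are given side by side only. Its interaction passed for 502 of 20261 transcripts (2.48%). The transcripts called in the liver alone at the high dose had medians of 1.16 and -0.83 in the liver at the low dose, and those in opposite directions had medians of 1.10 in the liver and -0.63 in the kidney for the 25 and of -0.71 and 0.72 for the 16.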

How the data were processed

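RNA from liver and kidney was sequenced as stranded poly-A libraries. The authors quantified reads with kallisto 0.42.2 against the Ensembl Rnor_6.0 rat transcriptome and deposited estimated counts, which are not normalized, and TPM for 40071 transcripts and 25095 genomic intervals. Their Sleuth test was not used here. Groups follow the sample labels. Estimated counts of transcripts were rounded, filtered with filterByExpr, TMM-scaled, and fitted by the edgeR 4.0.16 quasi-likelihood test in R 4.3.3, with 1 mean per organ and dose and the interaction as contrast. CPM uses the TMM-scaled library size. TPM shares were recomputed over transcripts alone. Single values were tested by exact permutation in scipy 1.17.1. Alternatives used DESeq2 1.42.0, limma 3.58.1 with voom or with log2-transformed TPM (pseudocount 1 or 0.1), other scalings and filters, and left-out libraries. The script was tested on simulated data. Intervals and floors cover counting error only. The replicates are separate libraries labelled as one group, and p-values measure their spread.

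The comparison, its classes, and the transcripts named were chosen with earlier results of these data known. Named transcripts were, in each class called in one organ alone or in opposite directions, the 2 with the largest absolute interaction among those measured in both organs whose dose groups did not overlap in any organ with a call. Where a group was at 0, that rank depends on the prior count. The planned rule named more and added gene lists and cell type markers. It was shortened and the lists dropped because 0 identifiers matched a gene symbol. No sequence is printed for the same reason.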

Additional observations from a re-analysis of the deposited data

Results flagged for a closer look

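The results below were picked by set rules for single libraries far from their group or for effects that differ between the organs. No explanation was weighed. Among 72 groups of 4 or 5 values, 9 had a library far from the others by Dixon's criterion, where chance gives about 1 in 20. Liver-restricted transcripts held 0.269% of transcript TPM in kidney high-dose library MS-54 and 0.0954% in kidney vehicle library MS-31. MS-31 was also high for ENSRNOT00000034784 among kidney vehicle libraries, at 1.23 CPM. In liver high dose, MS-26 was the highest for ENSRNOT00000075989 at 32.7 CPM, for ENSRNOT00000066277 at 1.89, and for ENSRNOT00000011344 at 21.2, and MS-3 was the only one above 0 for ENSRNOT00000061864, at 0.162. MS-21 of liver vehicle had 22350 transcripts above 0, more than the other 3, and in MS-91 of liver high dose the 20 most abundant transcripts held 29.7% of transcript TPM.

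The effect of the high dose differed between liver and kidney by the interaction test for 2825 transcripts, with calls in opposite directions for 41. The interaction, liver minus kidney on the log2 scale, was 9.82 for ENSRNOT00000086921, 9.66 for ENSRNOT00000075989, -7.86 for ENSRNOT00000092349, -6.88 for ENSRNOT00000061864, -10.62 for ENSRNOT00000083275, and -6.57 for ENSRNOT00000073099. Where a group was at 0, the fitted value depends on the prior count and is no measure of size. It was 2.85 for ENSRNOT00000033196, 2.63 for ENSRNOT00000083153, 5.21 for ENSRNOT00000066277, 4.62 for ENSRNOT00000011344, -5.88 for ENSRNOT00000034784, and -5.26 for ENSRNOT00000090272.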

How the results depend on the processing

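Over 38 alternatives, of which fits of one organ, of an interaction alone, or with a size limit give only some of the counts, 309 of 354 counts lay within 1.5 times the reported value. The alternatives of library totals without TMM of leaving out MS-31 and MS-54 together, and of pairing by library number were chosen after seeing the data. Counts follow in the order interaction, higher in liver, lower in liver, and measured in both organs. They were 6283, 5727, 556, and 5776 with library totals, 5743, 5248, 495, and 4992 with limma on log2(TPM + 1), 6260, 5833, 427, and 5581 on log2(TPM + 0.1), and 1563, 793, 770, and 1418 with MS-1 kept. The library-total fit differs from the reported one in the TMM factors alone. Liver calls were 8567, 7595, and 10209 in the first 3 of these, and kidney calls were 441 with MS-1 kept. The liver-alone class numbered 4880, 4224, 5244, and 1172, and the class in both organs in the same direction 187, 134, 189, and 5, in the same order. The kidney-alone class numbered 213 and 203 with the TPM fits and 187 with DESeq2. Opposite directions numbered 20 on log2(TPM + 1), 23 with MS-1 kept, and 76 with DESeq2, and the same direction 126 with DESeq2 and 42 without MS-31 and MS-54. The causes of the other changes were not tested.

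Leaving out each library in turn gave 2342 to 3029 interaction calls, 4312 to 5043 in the liver, 606 to 1035 in the kidney, 2140 to 2762 measured in both organs, 1155 to 1590 higher and 1168 to 1558 lower in liver, 1817 to 2361 in the liver alone, 80 to 145 in the kidney alone, and 31 to 53 in opposite directions. The same-direction class ranged from 44 to 83, and was 48 without MS-20, 47 without MS-103, 47 without MS-36, and 44 without MS-56. Of 432 values of the named transcripts under alternatives, none reversed and 18 no longer passed, 13 of them for ENSRNOT00000086921, 2 each for ENSRNOT00000075989 and ENSRNOT00000092349, and 1 for ENSRNOT00000083275.

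Kidney libraries numbered 30 above a liver library of the same group gave 7 possible pairs from one rat, which the labels do not state. The deviations of the paired libraries from their group means correlated over 0.1 in 6 of the 7 pairs and at -0.06 in the other, and 5 of the 7 liver libraries correlated best with their own number, which is a hint of pairing from the data. With the pair as a replicate block these 14 libraries gave 1614 interaction calls, 755 higher and 859 lower in the liver, 1549 of them measured in both organs, and without the block 2304, with 46 called in both organs in the same direction. Of the 2824 reported calls tested, all kept their sign with the block and 1441 were called. Depth limits transcripts below 1 CPM, of which 2179 tested were measured in neither organ.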
